A study of Mus musculus with 2 samples.

Results

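The genes described are 10 of the 32285 listed in the count matrices: the matrix metalloproteinases Mmp8, Mmp9, Mmp12, Mmp13, Mmp14 and Mmp19, the metalloproteinase inhibitors Timp1 and Timp2, the matrix protein fibronectin (Fn1) and the secreted phosphoprotein osteopontin (Spp1). They were taken by gene symbol, each symbol matched 1 row, and their UMIs (unique molecular identifiers, 1 per captured transcript) were counted in myeloid cell types gated by marker genes. Transcripts of single CD45+ leukocytes, sorted by flow cytometry from mouse tumours, were counted with a 10x Genomics 5′ kit in 2 libraries. The Ythdf2 KO library came from tumours labelled as knocked out for Ythdf2, a protein that binds methylated adenosine in mRNA, and the WT library came from tumours labelled WT. Both came from C57BL/6 mice, and the number of tumours pooled, the age of the mice and the tumour line are not given in the sources used here. The labels speak of knockout tumours and the design text of conditional knockout mice, so the cells that lost Ythdf2 are not settled by these sources. Ythdf2 itself had 46.1 CPM (UMIs scaled to 1000000 per library or gate) in the Ythdf2 KO leukocytes and 48.4 CPM in the WT leukocytes (44.9 to 47.3 and 47.4 to 49.5). In gated monocytes and macrophages together it had 41.4 CPM in Ythdf2 KO and 41.5 CPM in WT. In gated neutrophils it had 24.7 and 11.6 CPM, on 51 and 16 UMIs. The deleted part of the gene is not given in the sources used here, so these levels do not check the label.

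Matrix metalloproteinases are zinc proteases that cut collagens, elastin and other matrix proteins after activation of a proenzyme, and Timps bind their active sites. Neutrophils store the collagenase Mmp8 and the gelatinase Mmp9 in granules, whereas the macrophage elastase Mmp12 and the collagenase Mmp13 are secreted by tissue macrophages. Mmp14 is anchored in the membrane, where with Timp2 it activates other metalloproteinases, and Fn1 and Spp1 are integrin ligands that macrophages and other cells deposit.

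The 15844 Ythdf2 KO and 20415 WT barcodes kept had median depths of 5753 and 5674 UMIs. The neutrophil gate held 975 Ythdf2 KO and 567 WT cells, the classical monocyte gate 2545 and 3172, the patrolling monocyte gate 422 and 124, the gate of macrophages that still carry the monocyte gene Ly6c2 1629 and 2712, and the macrophage gate without it 856 and 1111. Mature dendritic cells (DCs) numbered 243 and 479, and plasmacytoid DCs 140 and 86. The gates of both conventional DC types had under 50 cells in at least 1 library and are given no value. A further 4216 Ythdf2 KO and 6246 WT barcodes met no gate, and 1978 and 2074 were set aside for markers of a pair of lineages. The libraries share 101 barcode sequences. With 1 library per genotype, differences were not tested and have no replicates, and all intervals (95%) cover counting error only. In the summed monocyte and macrophage gates the tumour marker Rhox5 had 6.48 CPM in Ythdf2 KO and 5.91 CPM in WT cells. The 7 macrophage markers summed to 6998 CPM in Ythdf2 KO and 9663 CPM in WT cells of these gates. Among them Apoe had 1016 and 2783 CPM, C1qa 1236 and 1365 CPM and C1qb 1600 and 1895 CPM. The 7 classical monocyte markers summed to 9441 and 8753 CPM. The 6 fibroblast markers summed to 1.96 CPM in Ythdf2 KO and 1.59 CPM in WT cells.

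T cells served to show what free RNA in the droplets can give, since they are not known as a main source of most of these genes. In T cells, Mmp12 had 32.9 CPM in Ythdf2 KO and 30.2 CPM in WT, Fn1 had 44.7 and 62.2 CPM, and Timp1 had 10.4 and 14.4 CPM. Mmp13 had 17.9 CPM in Ythdf2 KO and 12.2 CPM in WT T cells, a ratio of 1.47, and Mmp14 had 25.2 and 35.4 CPM, a ratio of 0.712. These T cell ratios go the same way as those of the monocyte and macrophage gates, at lower levels, and the part of free RNA in the ratios of those gates was not tested.

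Mmp13, Mmp12 and Mmp8 stand in this order on the plus strand of mouse chromosome 9 (GENCODE M21, GRCm38). Mmp13 spans chr9:7272514-7283331, Mmp12 spans chr9:7344381-7369499 and Mmp8 spans chr9:7558456-7568485, so that 61 kb separate the first pair and 189 kb the second. The other genes lie on different chromosomes: Mmp9 at chr2:164940780-164955850, Mmp14 at chr14:54431612-54445364, Mmp19 at chr10:128790910-128800824, Timp1 at chrX:20870166-20874735, Timp2 at chr11:118301069-118355740, Fn1 at chr1:71585520-71653200 and Spp1 at chr5:104435118-104441050. All are protein-coding. Timp1 lies in an antisense overlap with Syn1, Mmp12 with Mmp1b, Mmp19 with Tmem198b and Gm47093, and Fn1 with Apol7d, and Timp2 overlaps Cep295nl on its own strand. Counts of these partners were low in the monocyte and macrophage gates: Syn1 had 2.59 CPM in Ythdf2 KO and 2.35 CPM in WT, Tmem198b 6.03 and 7.34 CPM, and Mmp1b had no UMI in either library. Spp1 overlaps Gm42793 on the same strand, and that gene is not among those listed in the count matrices.

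The stretches upstream of Mmp13 and Mmp12 are shown because these neighbours had higher levels in Ythdf2 KO macrophages. RefSeq promoters (GRCm38.p6) were found for 7 of the 10 genes. The AP-1 motif, the site of Fos and Jun dimers, was searched as TGANTCA, a pattern that reads the same on both strands. It was found in the 250 bases before the start of 2217 of 32851 promoters (6.75%) and, among the 7, once, before Mmp13, with its first base at position -35 (capitals). The Mmp13 stretch is chr9:7272264-7272513 and the Mmp12 stretch is chr9:7344147-7344396, both plus strand. The RefSeq start used for Mmp12 lies 16 bases inside its GENCODE span, so the last bases of its stretch fall within that span. A match is letters only and says nothing about binding.
Mmp13: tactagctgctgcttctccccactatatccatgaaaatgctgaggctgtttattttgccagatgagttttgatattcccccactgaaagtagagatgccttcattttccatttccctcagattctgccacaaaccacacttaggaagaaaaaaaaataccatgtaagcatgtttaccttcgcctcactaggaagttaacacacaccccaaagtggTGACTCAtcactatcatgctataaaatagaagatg
Mmp12: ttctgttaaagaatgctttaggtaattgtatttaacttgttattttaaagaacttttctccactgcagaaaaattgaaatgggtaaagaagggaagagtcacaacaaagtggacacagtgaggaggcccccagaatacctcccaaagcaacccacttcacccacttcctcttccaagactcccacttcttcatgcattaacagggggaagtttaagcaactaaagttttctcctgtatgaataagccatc

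Each of the 10 genes had its highest myeloid level in the same gate in both libraries. Mmp8, Mmp9 and Spp1 were highest in neutrophils, Mmp12, Mmp13, Mmp14 and Timp2 in macrophages, and Mmp19, Timp1 and Fn1 in classical monocytes. From classical monocytes over Ly6c2+ macrophages to macrophages, Mmp19 had 134, 59.4 and 21.8 CPM in Ythdf2 KO cells and 180, 63.4 and 36.9 CPM in WT cells. Along the same gates Mmp14 had 52.6, 128 and 181 CPM in Ythdf2 KO and 84.0, 189 and 255 CPM in WT cells, and Timp2 had 51.8, 182 and 326 CPM in Ythdf2 KO and 48.5, 175 and 257 CPM in WT cells. The descending and ascending orders hold in both libraries, with intervals that do not overlap between these 3 gates for Mmp14 and Mmp19. Fn1 had 407, 126 and 107 CPM in Ythdf2 KO and 545, 176 and 187 CPM in WT, and in WT the intervals of both macrophage gates overlap.

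**Figure D1:**
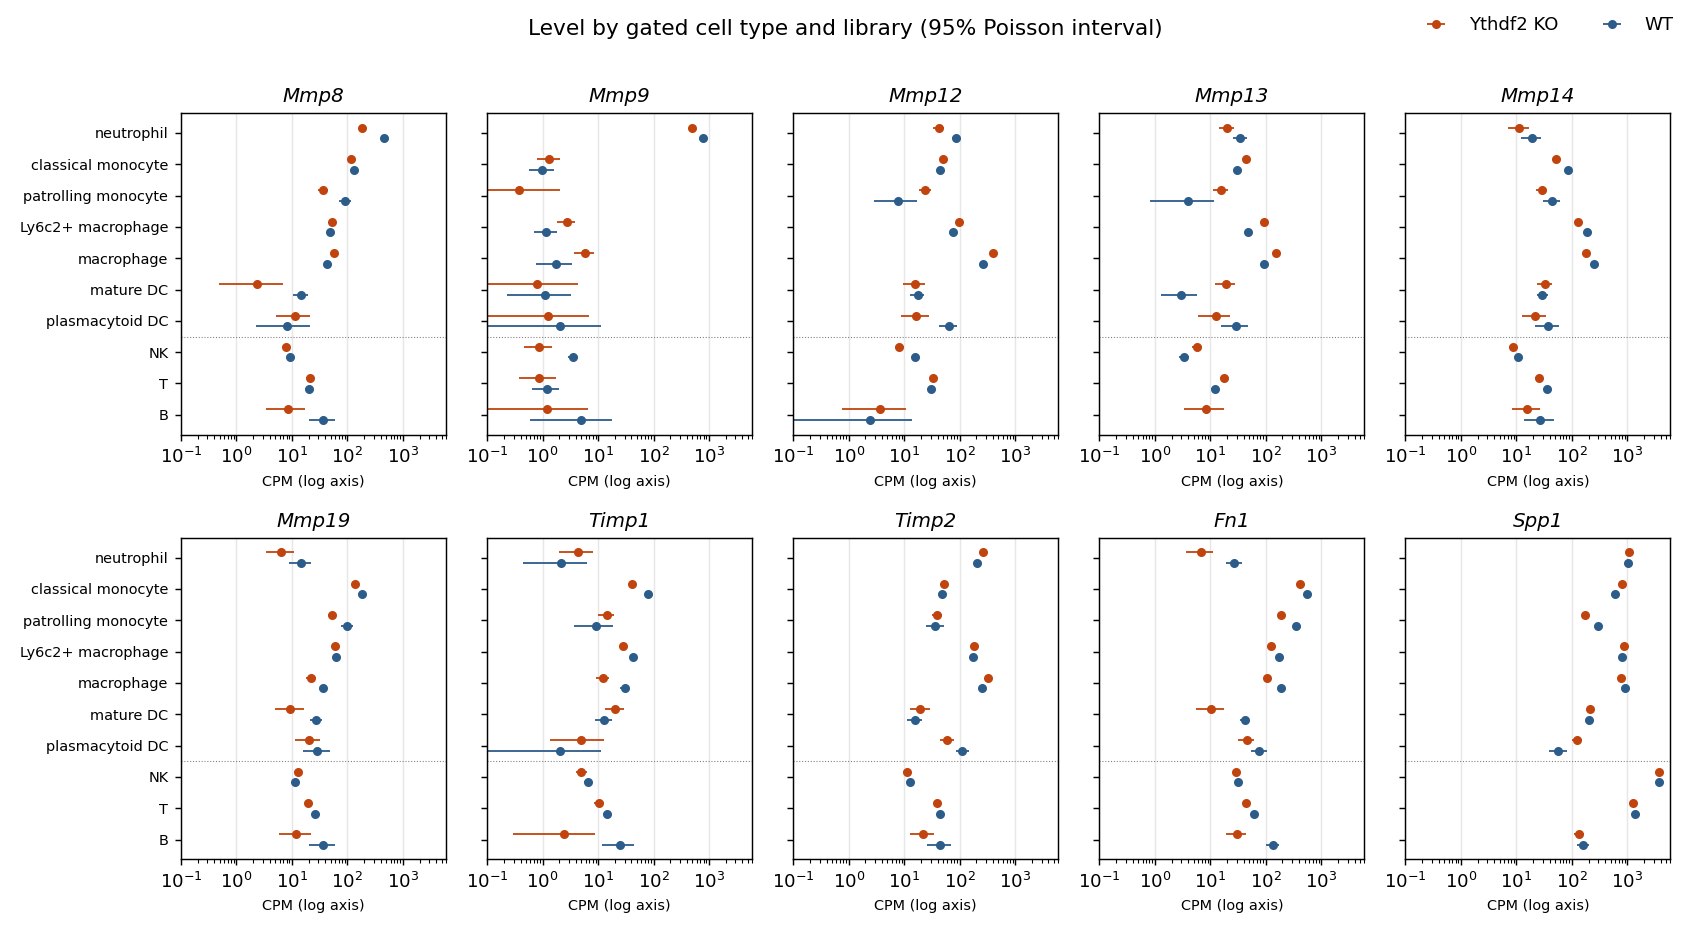
Level of each gene (x, CPM on a log axis) in 10 gated cell types (y) in the Ythdf2 KO library (orange, upper point of each pair) and the WT library (blue), with 95% Poisson intervals; the dotted line separates myeloid gates from the NK, T and B cells, and a level of 0 has no point. Mmp9 stood at 491 CPM in Ythdf2 KO and 766 CPM in WT neutrophils and at single-digit levels in monocytes and macrophages, and Spp1 was higher in NK cells than in any myeloid gate.

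In neutrophils, the granule proteases Mmp8 and Mmp9 were lower in the Ythdf2 KO library. Mmp8, neutrophil collagenase, had 180 CPM in Ythdf2 KO and 461 CPM in WT neutrophils, a ratio of 0.391 (0.343 to 0.445). Mmp9 had 491 and 766 CPM, a ratio of 0.642 (0.588 to 0.700). After each cell was thinned to 1000 UMIs, 11.8% of Ythdf2 KO and 21.5% of WT neutrophils had an Mmp8 UMI, against 1.08% and 1.74% of T cells. Thinned shares for Mmp9 were 34.4% of Ythdf2 KO and 47.2% of WT neutrophils, against 0.0985% and 0.145% of T cells. Before thinning, the shares were 19.1% and 33.2% of neutrophils for Mmp8 and 48.8% and 63.1% for Mmp9, and thinning left out 45 Ythdf2 KO and 10 WT neutrophils. The median unthinned depths were 1785 and 2023 UMIs in neutrophils and 6780 and 6555 UMIs in T cells. Timp2 stood the other way, at 262 CPM in Ythdf2 KO and 208 CPM in WT neutrophils (1.26, 1.09 to 1.46). Other neutrophil genes were lower too: the gate gene Retnlg, which encodes a secreted protein, had 4425 CPM in Ythdf2 KO and 9312 CPM in WT, and S100a8 had 42080 and 57830 CPM. The granule gene Ngp had 9.69 and 56.5 CPM, on 20 and 78 UMIs. At fewer UMIs Ltf had 8.24 and 10.9 CPM and Camp 2.42 and 5.07 CPM. The part of these neutrophil genes in the metalloproteinase ratios was not tested.

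Counted over the 10 genes, 7 were measured in neutrophils (at least 50 UMIs in all and 10 CPM in 1 library), and 5 of these were at least 1.5-fold lower and 0 at least 1.5-fold higher. Of all 4367 genes measured in the gate, 6.78% were as much lower and 4.44% as much higher. Without the 1% of cells with most UMIs of each gene, 2 of the genes were lower. Mmp12, Mmp13 and Fn1 account for 3 of the 5. Mmp12 had 41.7 CPM in Ythdf2 KO and 86.2 CPM in WT neutrophils (0.484), and 32.9 and 30.2 CPM in T cells. Thinned to 1000 UMIs, 1.08% of neutrophils in either library had a UMI of it, below the T cell shares of 1.58% and 1.45%. Thinned to 2000 UMIs, which 366 Ythdf2 KO and 289 WT neutrophils reached, 3.0% and 4.15% did. These shares were above the T cell shares of 2.29% and 2.52% at that depth. In neutrophils 1% of the cells held 93.0% of the Mmp12 UMIs in Ythdf2 KO and 89.9% in WT. With gate minimums doubled the neutrophil ratio of Mmp12 was 1.10. Fn1, at 6.79 CPM in Ythdf2 KO and 26.8 CPM in WT neutrophils, was below its T cell level in both libraries. Mmp13 had 19.9 CPM in Ythdf2 KO and 34.8 CPM in WT neutrophils, against 17.9 and 12.2 CPM in T cells. Of neutrophils thinned to 1000 UMIs 0.645% and 0.718% had a UMI of it, against 1.18% and 0.652% of T cells. Thinned to 2000 UMIs the shares were 2.73% and 1.04% of neutrophils, against 1.87% and 1.61% of T cells. In WT neutrophils 1 barcode held 37 of the 48 Mmp13 UMIs, and in Ythdf2 KO neutrophils 1 held 18 of 41.

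**Figure D2:**
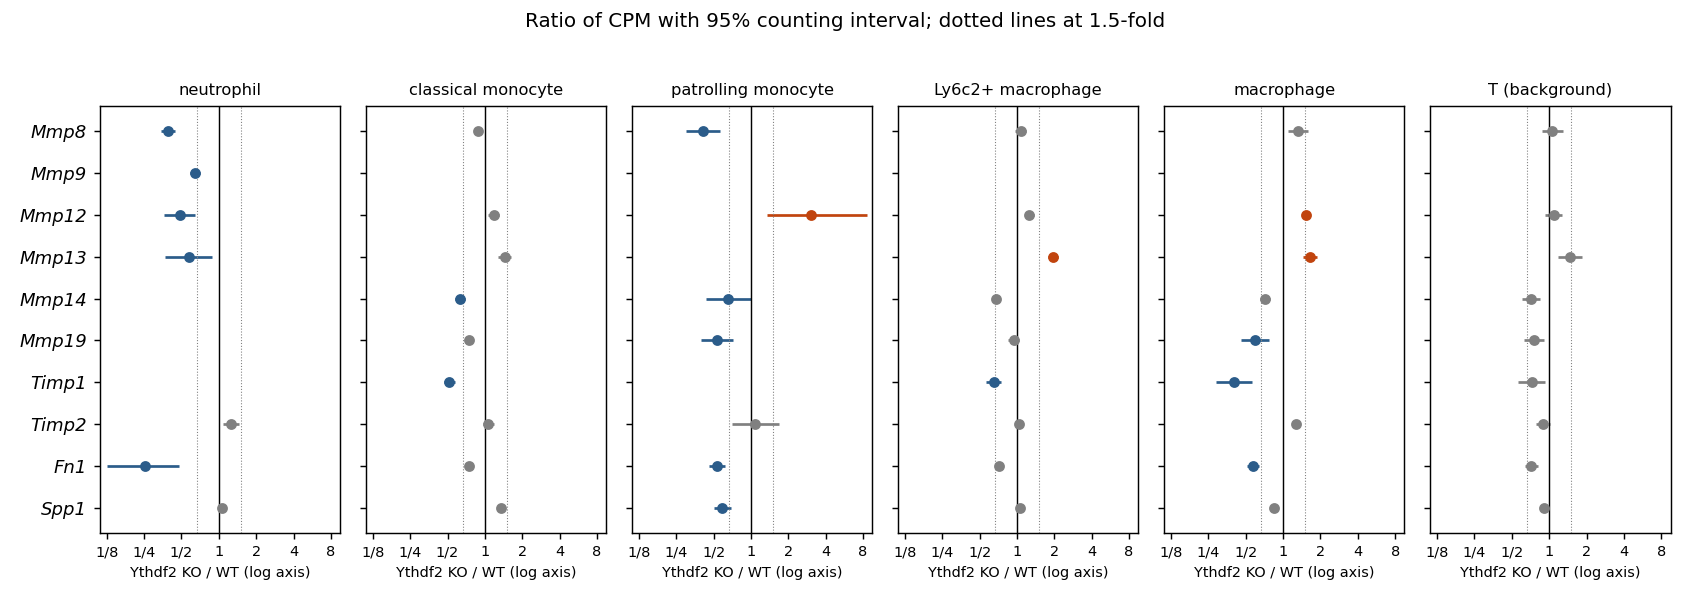
Ratio of CPM, Ythdf2 KO over WT (x, log axis), for each measured gene (y) in 5 myeloid gates and in T cells, with 95% counting intervals; blue points are at least 1.5-fold lower, orange at least 1.5-fold higher, grey within, and dotted lines mark 1.5-fold. Timp1 and Mmp14 lie left of 1 and Mmp13 right of 1 in classical monocytes and both macrophage gates, and in T cells all measured genes lie within the dotted lines.

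In monocytes and macrophages, collagenase Mmp13 was higher and the inhibitor Timp1 and the membrane protease Mmp14 were lower in the Ythdf2 KO library. Summed over the 4 monocyte and macrophage gates, Mmp13 had 73.7 CPM in Ythdf2 KO and 44.8 CPM in WT (1.64, 1.54 to 1.75). Timp1 had 30.3 and 56.8 CPM (0.534, 0.494 to 0.577), and Mmp14 had 94.7 and 148 CPM (0.638, 0.610 to 0.667). Within 1.5-fold lay Mmp12 at 113 CPM in Ythdf2 KO and 84.0 CPM in WT, Mmp19 at 85.9 and 112 CPM, Fn1 at 250 and 343 CPM, Mmp8 at 79.8 and 86.1 CPM, Timp2 at 134 and 127 CPM and Spp1 at 764 and 720 CPM. Mmp9 was not measured there, with 2.34 and 1.13 CPM. So 9 of the 10 genes were measured, of which 2 were at least 1.5-fold lower, where 1.98% of all 7057 measured genes were, and 1 at least 1.5-fold higher, where 0.794% were. Their median log2 ratio was -0.11, against -0.04 over all measured genes. When the Ythdf2 KO levels were weighted to the WT mix of the 4 gates, the ratios were 1.73 for Mmp13, 0.554 for Timp1 and 0.672 for Mmp14, the last within 1.5-fold.

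Timp1, which inhibits secreted metalloproteinases, had 41.5 CPM in Ythdf2 KO and 80.2 CPM in WT classical monocytes (0.517, 0.467 to 0.571). It had 27.6 and 42.5 CPM in Ly6c2+ macrophages (0.650, 0.566 to 0.746) and 12.2 and 30.2 CPM in macrophages (0.403, 0.288 to 0.557). In every one of these gates its level was lower in Ythdf2 KO cells by more than the counting error. The Ythdf2 KO macrophage level (9.11 to 15.9) was close to that of Ythdf2 KO T cells, 10.4 CPM (8.40 to 12.7). Thinned shares of cells with a Timp1 UMI were 2.97% of Ythdf2 KO and 5.59% of WT classical monocytes. In Ly6c2+ macrophages they were 3.33% and 3.08%, with intervals that overlap. Thinned to 2000 UMIs the Ly6c2+ macrophage shares were 5.24% and 5.63%, and unthinned 11.1% and 11.8%. Their order changed with the depth, so the Ly6c2+ macrophage difference is not read from shares. Unthinned, the classical monocyte shares were 10.9% and 16.1%. In macrophages the thinned shares were 1.57% and 2.25%, with intervals that overlap (unthinned 4.67% and 6.39%). Of thinned Ythdf2 KO and WT T cells 0.887% and 0.870% had a UMI.

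Mmp14 had 52.6 CPM in Ythdf2 KO and 84.0 CPM in WT classical monocytes (0.626), 128 and 189 CPM in Ly6c2+ macrophages (0.678) and 181 and 255 CPM in macrophages (0.711). The last pair of ratios falls short of 1.5-fold, with the intervals 0.636 to 0.723 and 0.649 to 0.779 below 1. The thinned share with a UMI followed the levels, at 8.0% of Ythdf2 KO and 13.4% of WT cells over the 4 gates, against 2.46% and 3.26% of T cells (unthinned 29.5% and 39.2% over the gates). Fibronectin had 407 CPM in Ythdf2 KO and 545 CPM in WT classical monocytes (0.746), and 107 and 187 CPM in macrophages (0.573). Mmp19, a soluble metalloproteinase, had 134 and 180 CPM in classical monocytes (0.747) and 21.8 and 36.9 CPM in macrophages (0.591, 0.455 to 0.764), the macrophage levels being close to those of T cells (19.9 and 26.5 CPM).

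Mmp13 had 44.6 CPM in Ythdf2 KO and 30.8 CPM in WT classical monocytes (1.45, 1.28 to 1.63). It had 92.6 and 47.4 CPM in Ly6c2+ macrophages (1.96, 1.78 to 2.15) and 152 and 92.2 CPM in macrophages (1.65, 1.46 to 1.87). The elastase Mmp12 had 51.2 and 43.5 CPM in classical monocytes (1.18), 96.8 and 77.3 CPM in Ly6c2+ macrophages (1.25) and 401 and 262 CPM in macrophages (1.53, 1.42 to 1.65). In the macrophage gate alone did both genes reach 1.5-fold. In classical monocytes the Mmp12 ratio was 0.954 with gate minimums doubled and 0.985 as a mean of per-cell CPM, and 1 Ythdf2 KO barcode held 193 of the 696 Mmp12 UMIs. The share of classical monocytes with an Mmp12 UMI, thinned to 1000 UMIs, was 2.30% in Ythdf2 KO and 1.97% in WT, with intervals that overlap. Thinned to 2000 UMIs it was 2.73% and 3.44%, and unthinned 4.91% and 4.82%, so the order depended on the depth. Mmp12 rested on few cells, since 1% of the cells of the 4 gates held 60.4% of its UMIs in Ythdf2 KO and 55.3% in WT. Thinned shares over the 4 gates were 4.54% of Ythdf2 KO and 3.91% of WT cells for Mmp12, whose intervals overlap, and 4.98% (4.42 to 5.60) and 3.58% (3.16 to 4.04) for Mmp13 (unthinned 12.1% and 8.68%).

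The counts by gate followed these values. In classical monocytes 2 of 9 measured genes were at least 1.5-fold lower (1.88% of all measured genes) and 0 higher (0.583%). In Ly6c2+ macrophages 1 of 9 was lower (2.36%) and 1 higher (1.04%), and in macrophages 3 of 9 were lower (5.81%) and 2 higher (1.89%). Patrolling monocytes, with 124 WT cells, gave 5 of 7 lower (4.94%) and 1 higher (6.16%). Among them Mmp8 had 36.9 CPM in Ythdf2 KO and 90.1 CPM in WT (0.409, 0.298 to 0.565), Fn1 190 and 357 CPM (0.532) and Spp1 175 and 298 CPM (0.588). The Spp1 ratio was 1.03 with no C1q or lymphoid UMI allowed. Mmp19 had 52.7 and 99.3 CPM (0.531), and Mmp14 had 29.0 and 44.4 CPM (0.653) with an interval that reaches 1.01. The higher one was Mmp12, at 24.1 and 7.84 CPM (3.07, 1.34 to 8.69), which is 64 and 6 UMIs and below the T cell level in both libraries. Its ratio was 1.09 where barcodes were set aside for neutrophil genes only with 10 S100a8 and S100a9 UMIs, an alternative added after the values were seen.

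Macrophages of both gates were then split by polarisation genes: the arginase gene Arg1, the mannose receptor gene Mrc1, and Nos2 or Cxcl9, which mark macrophages exposed to interferon. Mmp12 and Mmp13 were much higher in the Arg1+ macrophages of the Ythdf2 KO library, although these were fewer, with 330 cells in Ythdf2 KO and 1019 in WT. Mmp12 had 678 CPM in Ythdf2 KO and 230 CPM in WT Arg1+ macrophages (2.95, 2.75 to 3.17), and Mmp13 had 237 and 90.5 CPM (2.62, 2.34 to 2.94). Mmp8 had 105 and 58.7 CPM (1.80, 1.53 to 2.10). The thinned share of Arg1+ macrophages with an Mmp12 UMI was 21.2% (16.9 to 26.0) in Ythdf2 KO and 9.75% (8.0 to 11.8) in WT, so the higher level was spread over a larger share of the cells. Unthinned, the shares were 36.4% and 18.7%, and in T cells 4.49% and 4.38% (1.58% and 1.45% thinned). Arg1 itself had 1402 and 1413 CPM in these cells, and with a split at 5 Arg1 UMIs, an alternative added after the values were seen, Mmp12 had a ratio of 3.12. Median depths of the Arg1+ macrophages were 7164 and 5502 UMIs. The monocyte gene Ly6c2 had 994 CPM in Ythdf2 KO and 1882 CPM in WT Arg1+ macrophages, and the 7 classical monocyte markers summed to 3612 and 4947 CPM. The Mmp12 ratio was 2.14 (1.91 to 2.40) in the Arg1+ cells of the Ly6c2+ gate and 2.68 (2.45 to 2.94) in those of the gate without Ly6c2, with 174 and 156 Ythdf2 KO and 699 and 320 WT cells. Those of Mmp13 were 2.56 and 2.25, and those of Mmp8 1.44 and 2.62, also added after the values were seen. The part of maturation within each gate in these ratios was not tested.

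Timp1 stood the other way in Arg1+ macrophages, at 20.9 CPM in Ythdf2 KO and 48.9 CPM in WT (0.427, 0.314 to 0.570). Timp2 had 324 and 224 CPM (1.45), and Mmp14, Mmp19, Fn1 and Spp1 were within 1.5-fold. Mmp9 had 42 UMIs in Ythdf2 KO and 14 in WT, 15.9 and 2.22 CPM (7.19, 3.85 to 14.3), and 1 Ythdf2 KO cell held 17 of the 42. In all, 1 of the 10 genes measured in Arg1+ macrophages was at least 1.5-fold lower (4.75% of all measured genes) and 4 at least 1.5-fold higher (2.45%).

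Mrc1+ macrophages without Arg1 had Mmp13 and Timp1 ratios close to those of Arg1+ macrophages, but Mmp12 (1.40) and Mmp8 (1.25) were within 1.5-fold. In Mrc1+ macrophages without Arg1, Mmp13 had 131 CPM in Ythdf2 KO and 52.0 CPM in WT (2.52, 2.03 to 3.16), Timp1 17.8 and 42.4 CPM (0.420), and Fn1 117 and 241 CPM (0.485). There 2 of 9 were lower (5.87%) and 1 higher (2.89%). In Nos2+ or Cxcl9+ macrophages 4 of 9 were lower (6.72%) and 0 higher (2.89%). Mmp12 had 36.3 and 66.6 CPM (0.545) and Spp1 399 and 690 CPM (0.578). Mmp14 had 126 and 191 CPM (0.659) and Fn1 89.9 and 137 CPM (0.655). Thinned shares with an Mmp12 UMI there were 2.4% and 2.9%, with intervals that overlap (unthinned 7.74% and 8.36%). Of the 142 WT Mmp12 UMIs, 1 cell held 34. In macrophages with none of these genes 0 of 9 were lower (3.69%) and 1 higher (1.16%), Mmp13 at 71.0 and 40.0 CPM (1.77, 1.55 to 2.03). Whether the ratios of the classes differ beyond sampling of tumours could not be tested with 1 library per genotype.

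**Figure D3:**
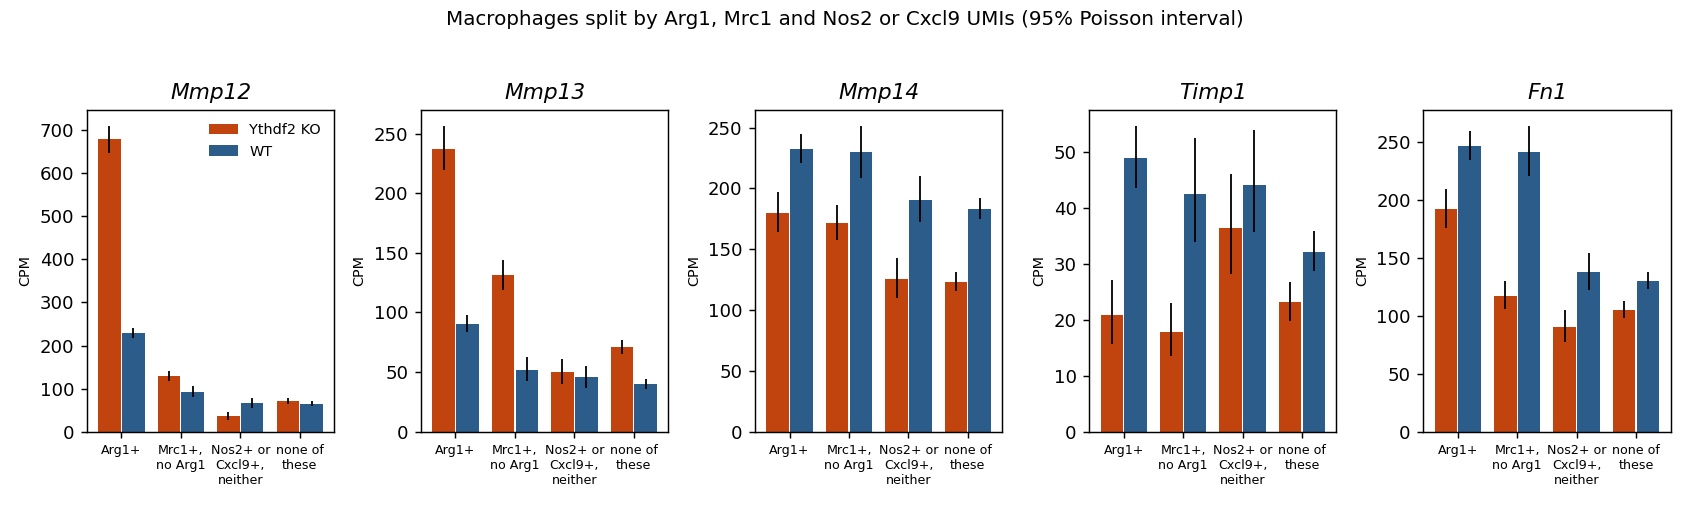
Level (y, CPM, from 0) of Mmp12, Mmp13, Mmp14, Timp1 and Fn1 in macrophages split by Arg1, Mrc1 and Nos2 or Cxcl9 UMIs, with Ythdf2 KO (orange) left of WT (blue) and 95% Poisson intervals. Mmp12 stood at 678 CPM in Ythdf2 KO and 230 CPM in WT Arg1+ macrophages and at 71.2 and 64.9 CPM in macrophages with none of these genes.

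Within single macrophages of both gates, thinned to 2000 UMIs, Mmp12 and Mmp13 were found in the same cells. Of the Ythdf2 KO cells with an Mmp12 UMI, 37.7% (31.3 to 44.5) also had an Mmp13 UMI, against 8.75% of those without one. In WT the shares were 26.5% (21.5 to 32.0) and 5.54%. Mmp8 was likewise in 44 of 220 Ythdf2 KO cells with Mmp12 and in 5.13% of those without, and in 20.2% and 4.75% of WT cells. Timp1 did not share this pattern, in 5.45% (2.85 to 9.33) of Ythdf2 KO cells with Mmp12 and 4.21% without, and in 3.83% (1.93 to 6.75) and 5.29% of WT cells. Across the 20 gate profiles (10 gates in each library, log2 CPM + 1), the gene most like Mmp12 of 8014 was Mmp13 (Pearson r = 0.903), followed by the chemokine Pf4 (0.885) and Stab1 (0.868). After Mmp12, Mmp13 was nearest to Cbr2 (0.879) and Amdhd2 (0.873). Most like Mmp14 were the lysosomal protease Lgmn (0.972), Arl8a (0.952) and the complement receptor C3ar1 (0.951). Mmp19 and Fn1 were close to each other (0.955) and to the clotting factor gene F13a1 (0.93 and 0.964), with Plcb1 (0.922) next for Mmp19 and AI504432 (0.922) for Fn1. Mmp8 was nearest to the chemokine receptor Ccr1 (0.949), Cd14 (0.944) and the inflammasome gene Nlrp3 (0.939), and Mmp9 to Mrgpra2b (0.969), Ceacam10 (0.965) and Sycp2 (0.964). Timp1 was nearest to Nt5dc2 (0.849), Elk3 (0.845) and Prpf38a (0.836), and Timp2 to the ferritin gene Fth1 (0.918), Sertad1 (0.875) and Fnip1 (0.874). Spp1 was nearest to the glycolytic gene Eno1 (0.93), Fam162a (0.928) and Raph1 (0.877). Profiles of 1 library share its depth and free RNA, so these values are a description.

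Spp1 was highest in NK cells, which had 3794 CPM in Ythdf2 KO and 3742 CPM in WT, and 55.0% and 53.3% of thinned NK cells had a UMI. Neutrophils had 1086 and 1034 CPM (1.05, 0.983 to 1.12), T cells 1279 and 1399 CPM and B cells 135 and 160 CPM. NK cells held 28.0% of all Spp1 UMIs of the Ythdf2 KO library and 38.3% of those of the WT library, while the monocyte and macrophage gates held 12.1% and 9.93%. In classical monocytes Spp1 had 798 CPM in Ythdf2 KO and 592 CPM in WT (1.35, 1.31 to 1.39). With lymphoid UMIs allowed in the gate, an alternative added after the values were seen, this ratio was 0.978, on 1811 and 1853 CPM. In mature DCs Spp1 had 212 CPM in Ythdf2 KO and 204 CPM in WT (1.04), Fn1 had 10.2 and 41.9 CPM (0.244, 0.126 to 0.434) and Mmp19 9.41 and 27.4 CPM (0.343), both at or under the T cell level in both libraries apart from Mmp19 in WT. Counted there, 2 of 7 measured genes were lower (5.56%) and 1 higher (3.58%), Timp1, whose interval (0.933 to 2.78) covers 1. Spp1 had 124 CPM in Ythdf2 KO and 57.2 CPM in WT plasmacytoid DCs (2.17, 1.42 to 3.43), on 99 and 28 UMIs. Both levels were below those of B cells, and 1 Ythdf2 KO cell held 23 of the 99 UMIs. Shares of plasmacytoid DCs with an Spp1 UMI went the other way, at 4.29% and 7.06% thinned (unthinned 19.3% and 22.1%). Timp2 had 60.2 CPM in Ythdf2 KO and 112 CPM in WT of these cells (0.536, 0.356 to 0.804), and Fn1 had 45.1 and 75.6 CPM (0.597, 0.367 to 0.972).

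Other matrix genes were counted in the summed monocyte and macrophage gates, where 1.98% of all measured genes were at least 1.5-fold lower and 0.794% higher. Among 22 other metalloproteinases 6 were measured and 1 was lower, Mmp25, a membrane-anchored protease, at 10.5 CPM in Ythdf2 KO and 17.4 CPM in WT (0.605). Among 11 other inhibitors 6 were measured, and 2 were higher: Serpinb2, which inhibits plasminogen activators, at 17.8 and 11.2 CPM (1.59), and Serpinb6a at 26.7 and 17.1 CPM (1.56). Among 14 serine and cysteine proteases 11 were measured and 2 were lower, the collagenolytic cathepsin Ctsk at 5.84 and 17.8 CPM (0.329) and the proprotein convertase Furin, which activates Mmp14, at 126 and 217 CPM (0.582). Of 18 matrix receptors 14 were measured and 1 was lower, the integrin Itga9, at 9.57 and 14.7 CPM (0.653). Of 16 matrix and matricellular genes 9 were measured and 1 was lower, the crosslinking enzyme Tgm2, at 169 and 334 CPM (0.505). The list medians (log2) were -0.23, 0.03, -0.30, -0.20 and -0.19 in this order, against -0.04 for all measured genes.

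**Figure D4:**
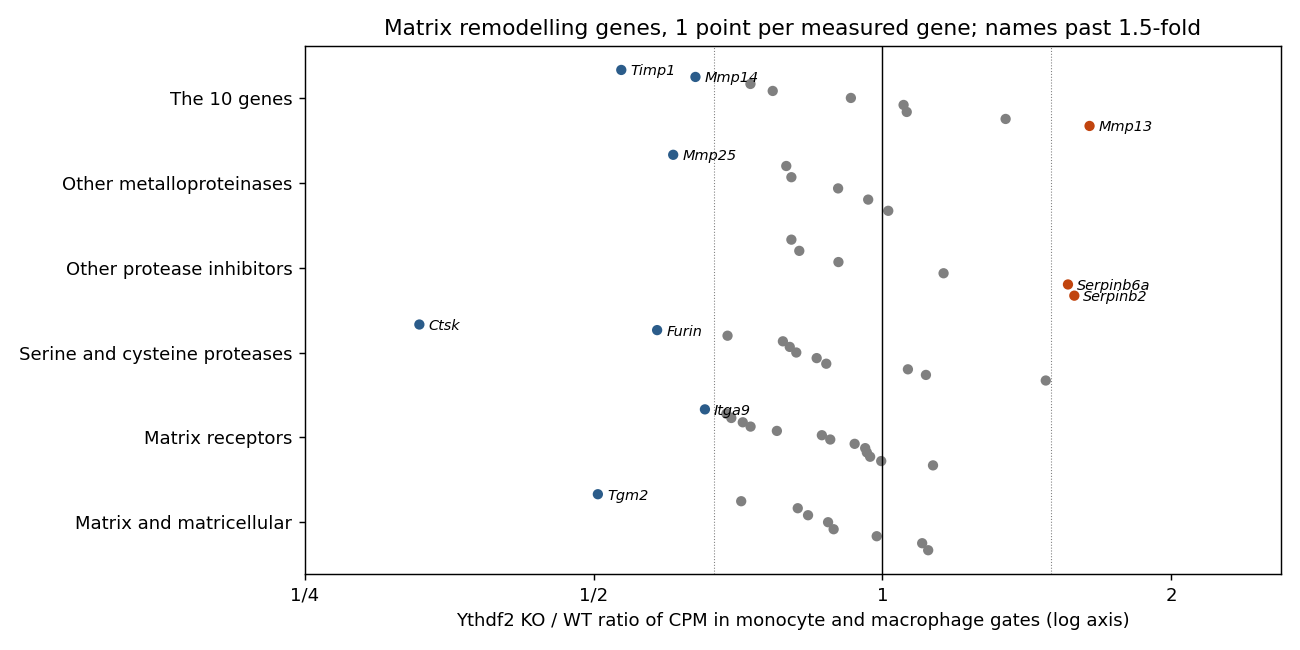
Ratio of CPM, Ythdf2 KO over WT (x, log axis), of each measured gene in the summed monocyte and macrophage gates, by gene list (rows); genes at least 1.5-fold lower (blue) or higher (orange) are named and dotted lines mark 1.5-fold. Lower genes named were Timp1, Mmp14, Mmp25, Ctsk, Furin, Itga9 and Tgm2, and higher genes were Mmp13, Serpinb2 and Serpinb6a.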

How the data were processed

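Single-cell RNA was measured in 2 libraries of sorted CD45+ tumour leukocytes, 1 per genotype. The authors deposited raw counts of UMIs for each gene in each barcode. The labels give mm10, Cell Ranger 5.0.1 and Seurat 4.0.4 (submitters' processing notes), but the version in the matrices is Cell Ranger 6.1.1, per the file headers, a conflict that was not settled. No column was left unused (0). In total 134066610 UMIs in 16312 barcodes (Ythdf2 KO) and 168912853 UMIs in 20886 barcodes (WT) were deposited.

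Barcodes with at least 500 UMIs, 200 genes and at most 10% mitochondrial UMIs were kept, and gated by raw UMIs of marker genes. Neutrophils needed 3 UMIs from at least 2 of Csf3r, Cxcr2, Retnlg, Il1r2 and Hdc plus 10 of S100a8 and S100a9. Classical monocytes needed 2 of Ly6c2 and macrophages 5 of C1qa, C1qb and C1qc, and those with 2 of Ly6c2 are the Ly6c2+ class. Patrolling monocytes needed 2 of Ace, Adgre4 and Treml4. Myeloid gates allowed at most 1 lymphoid UMI. The macrophage split took 2 UMIs of Arg1, then Mrc1, then Nos2 or Cxcl9. Doublets were not removed in the main values, apart from barcodes with a pair of lineages, and Scrublet scores were an alternative.

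UMIs were summed per gate and library and given as CPM with exact Poisson intervals, and shares with exact binomial (Clopper-Pearson) ones. Ratios, Ythdf2 KO over WT, have exact conditional binomial intervals. A ratio was counted from 1.5-fold where a gene had 50 UMIs over both libraries and 10 CPM in 1. No replicate exists, so no p-value is given, and fewer cells of a type and less RNA per cell can both move a summed level. All 10 genes are named, plus the 3 genes most like each in profile (Pearson r, genes with at least 20 CPM in 1 profile) and listed genes past 1.5-fold. The genes, gates and lists were chosen with earlier results of these data known. The software was scipy 1.17.1, numpy 2.4.6, scanpy 1.11.5, pandas 2.3.3 and matplotlib 3.10.9 under Python 3.11.15.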

Additional observations from a re-analysis of the deposited data

Results flagged for a closer look

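Mmp8, Mmp9, Mmp12 and Mmp13 had ratios (Ythdf2 KO over WT) that point opposite ways in different myeloid classes, both past 1.5-fold. With 1 library per genotype the differences between classes were not tested. Mmp8 had a ratio of 0.391 in neutrophils and 0.409 in patrolling monocytes, against 1.80 in Arg1+ macrophages. Mmp9 had 0.642 in neutrophils and 7.19 in Arg1+ macrophages, the second on 42 Ythdf2 KO and 14 WT UMIs. Mmp12 had 0.484 in neutrophils and 0.545 in Nos2+ or Cxcl9+ macrophages, against 3.07 in patrolling monocytes, 1.53 in macrophages and 2.95 in Arg1+ macrophages. Mmp13 had 0.572 in neutrophils, against 1.96 in Ly6c2+ macrophages, 1.65 in macrophages, 2.62 in Arg1+ macrophages, 2.52 in Mrc1+ macrophages and 1.77 in macrophages with none of these genes. The Mmp12 ratio was 1.10 in neutrophils with gate minimums doubled, and 1.09 in patrolling monocytes with the softer 2-lineage rule added after seeing the data. Mmp12 was below its T cell level in patrolling monocytes of both libraries. In Nos2+ or Cxcl9+ macrophages of Ythdf2 KO it had 36.3 CPM, near the 32.9 CPM of T cells. Thinned shares of this class with an Mmp12 UMI were 2.4% in Ythdf2 KO and 2.9% in WT, with intervals that overlap. In neutrophils the WT levels were above those of WT T cells, at 86.2 against 30.2 CPM for Mmp12 and 34.8 against 12.2 CPM for Mmp13. But 1 WT barcode held 37 of the 48 Mmp13 UMIs, and 1 held 39 of the 119 Mmp12 UMIs. The 1% of WT neutrophils with most UMIs of each gene held 100% of the Mmp13 and 89.9% of the Mmp12 UMIs.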

How the results depend on the processing

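Over 733 recomputed gene ratios, 643 lay within the counting interval of the reported ratio. On the other side of 1 from the reported ratio were 14. From ratios past 1.5-fold there were 2: Mmp12 in neutrophils at 1.10 with gate minimums doubled, and Spp1 in patrolling monocytes at 1.03 with no C1q or lymphoid UMI allowed. The other 12 were of ratios within 1.5-fold, among them Mmp12 in classical monocytes (lowest 0.954), Timp2 in patrolling monocytes (0.755), Mmp19 in Ly6c2+ and in Arg1+ macrophages (highest 1.02 and 1.07), and Spp1 in neutrophils (0.953), classical monocytes (0.978) and the summed gates (0.953). Of 332 recomputed ratios of genes past 1.5-fold, 23 fell inside it. The ratio of Timp1 ranged from 0.511 to 0.609 and that of Mmp13 from 1.54 to 1.98 over the monocyte and macrophage gates, and that of Mmp12 in Arg1+ macrophages from 2.54 to 3.55. Counts of genes past 1.5-fold moved as follows, and the causes were not tested. With gate minimums doubled, patrolling monocytes had 0 higher and Ly6c2+ macrophages 0 lower. With no C1q or lymphoid UMI allowed, classical monocytes had 1 lower and 1 higher and patrolling monocytes 3 lower. Without the 8% highest Scrublet scores, Ly6c2+ macrophages had 0 lower, and with a mitochondrial limit of 5% neutrophils had 3 lower. With means of per-cell CPM, classical monocytes had 1 higher, Ly6c2+ macrophages 2 lower and macrophages 1 higher. Without the 1% of cells with most UMIs of a gene, neutrophils had 2 lower, classical monocytes 1 higher and patrolling monocytes 0 higher. With no floor on low values, neutrophils had 1 higher, patrolling monocytes 3, Ly6c2+ macrophages 2 and the summed gates 2. Chosen after seeing the data, a softer 2-lineage rule gave Ly6c2+ macrophages 0 lower, and allowing lymphoid UMIs gave classical monocytes 1 lower and 1 higher, patrolling monocytes 2 higher, Ly6c2+ macrophages 0 lower and the summed gates 1 lower. Under the WT mix of 4 gates the summed gates had 1 lower, and under that of 6 gates, also added later, 1 lower and 2 higher. No paired analysis was possible because the labels carry no shared replicate numbers and each genotype has 1 library. Depth limits Mmp9 outside neutrophils and the genes not measured in dendritic cells.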

Other observations

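Barcodes that met no gate held 40.1% of the Mmp12 UMIs of the Ythdf2 KO library and 45.0% of those of the WT library. Mmp12 had 80.0 CPM there in Ythdf2 KO and 58.7 CPM in WT, and Mmp13 had 50.2 and 22.8 CPM (2.20, 2.07 to 2.35). Of these barcodes, 1691 in Ythdf2 KO and 2477 in WT had at least 5 C1q UMIs together with at least 2 lymphoid UMIs. In the gate of stromal or tumour cells, with 195 cells in Ythdf2 KO and 35 in WT (too few for a value), Timp1 had 246 CPM, Fn1 699 CPM and Spp1 2794 CPM in Ythdf2 KO, and these cells held 32.6% of the library's Timp1 UMIs. Single barcodes can hold many UMIs of a protease: 1 WT barcode of the NK gate had 254 Mmp12 UMIs.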
